A study of Mus musculus with 12 samples.

Results

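The genes examined were 10 genes of glucose uptake and glycolysis, Slc2a1, Hk1, Hk2, Pfkp, Pfkl, Aldoa, Eno1, Pkm, Ldha and Pfkfb3, and the measurement was the histone mark H3K27ac, acetylation of lysine 27 of histone H3, which is found at active promoters and enhancers. A single table listed 126464 intervals of the mouse genome (build mm10), each with the name of 1 gene, and the members were the 76 intervals that carried the name of 1 of the 10 genes. These 76 intervals belonged to 9 of the 10 genes, out of 22264 gene names in the table, because no interval carried the name Hk2.

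The cells were 4T1, an established mouse mammary carcinoma line, treated for 48 h in 6 groups of 2 libraries each. The groups were vehicle, acetate at 5 mM, etomoxir at 50 µM, etomoxir with acetate, etomoxir with SB204990 at 50 µM, and etomoxir with SB204990 and acetate, and every library carried 7.5% human chromatin as a spike-in. Etomoxir blocks CPT1, the carnitine palmitoyltransferase that lets fatty acids into mitochondria for oxidation, and SB204990 blocks ATP citrate lyase, which makes acetyl-CoA outside mitochondria from citrate. SB204990 was given only on top of etomoxir, so no comparison isolates it without etomoxir, and all cells were of 1 line.

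Acetyl-CoA is the donor of the acetyl group on histones, and acetate is turned into acetyl-CoA by acetyl-CoA synthetases without passing through ATP citrate lyase. Glycolysis turns glucose into pyruvate and is a main source of the citrate that ATP citrate lyase uses. Tumour cells commonly run glycolysis at a high rate, with GLUT1 and the second hexokinase as its usual entry points and lactate dehydrogenase A at its end.

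Between 7179165 and 16676442 reads fell in the intervals of a library, and the spike-in factors that multiplied them lay between 0.398 and 1, so the scaled totals spread from 5353659 to 13652107. The second library of etomoxir + SB204990 stood apart: its reads were the fewest, and it correlated with the other 11 at 0.915 on average, where each of the rest reached 0.949 to 0.958. The labels give the libraries of each group a suffix, here set 1 and set 2, and do not say whether they came from separate cultures, so p-values measure only the spread between these libraries. The highest factor in each set was 1, so scaled levels may be offset between the sets. A gap between the 2 libraries of a group may hold that offset. Intervals over the start sites of the epithelial genes Krt8, Krt18, Cdh1, Epcam and Krt14 held 404 to 4048 scaled reads on average, and Krt5 had none. Krt8 and Krt18 shared 1 interval, which carried the name Krt8. Of the 8 leukocyte, endothelial and adipocyte markers looked at, 7 had no interval over a start site, and Pecam1 had 12.1 scaled reads there.

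How the table names an interval is not given in the sources used here. Non-coding genes were among the names, and for 4 of the 10 genes the main H3K27ac domain carried another name. By GENCODE M21, 54 intervals overlapped the 10 genes, and 31 of these carried the name of another gene. Of the 76 named intervals, 53 lay outside the gene they were named for. Such naming was common across the table, where 3772 of 12054 protein-coding genes with an interval over a start site (31.3%) had none that carried their name. Each gene is therefore described in both ways, by the sum of the intervals with its name and by the sum of the intervals that overlap it. The second sum was chosen after the table had been seen.

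Slc2a1, which encodes the glucose transporter GLUT1, lies at chr4:119108711-119137983 on the plus strand. The 1 interval with its name is intergenic, 16.8 kb before the start, with 13.6 scaled reads on average. A domain of 58.1 kb, chr4:119093136-119151203, covered the whole gene with 2659 scaled reads and carried the name Gm12867. Hk2, the second hexokinase, which phosphorylates glucose on entry, lies at chr6:82725025-82774454 on the minus strand under a domain of 41.5 kb, chr6:82734467-82775935, named Gm17034, with 1732 scaled reads. Hk1, the first hexokinase, at chr10:62268855-62379908 on the minus strand, had 6 named intervals that together held 257 scaled reads, whereas the domain of 55.2 kb over its downstream start sites, chr10:62290806-62345965, held 2518 under the name Hk1os. Pfkfb3, which makes fructose 2,6-bisphosphate, the activator of phosphofructokinase, at chr2:11471433-11554077 on the minus strand, had 1 named interval with 31.4 scaled reads at its first start site. Of the signal over Pfkfb3, 96.0% carried the name Gm10851, including the interval at a later start site, chr2:11499491-11505888, with 224 scaled reads.

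Eno1, the enolase gene, showed the opposite. It had 46 named intervals, 45 of them outside the gene, the farthest at chr4:150406556-150407723, and 69.8% of the named sum lay outside the gene. The interval at its start site, chr4:150233935-150249628, held 1244 scaled reads, fewer than the 1740.1 of the named interval at chr4:150262589-150295313, which does not touch the gene.

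**Figure D1:**
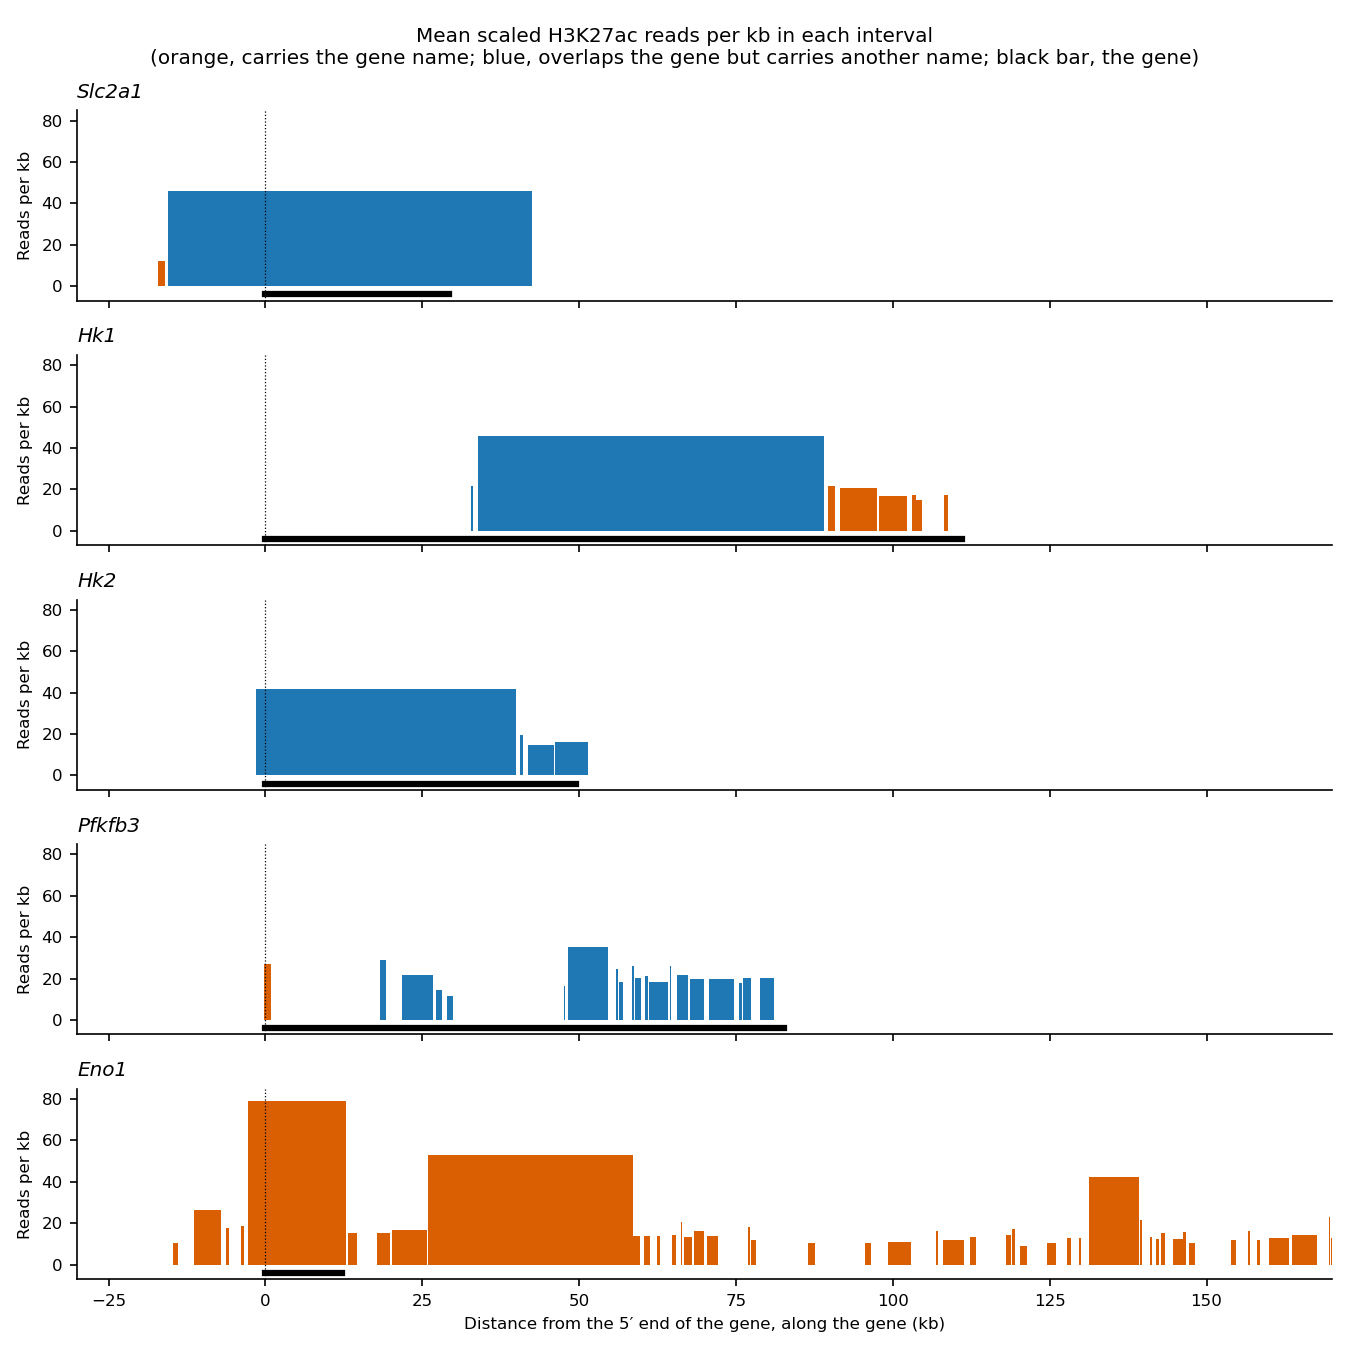
Mean scaled H3K27ac reads per kb in each interval (vertical axis) against the distance from the 5′ end of the gene in kb (horizontal axis) for Slc2a1, Hk1, Hk2, Pfkfb3 and Eno1, with bars as wide as the intervals. The broad blocks over Slc2a1, Hk1 and Hk2 are blue, carrying other names, while Eno1 has orange, named blocks far beyond the black bar of the gene.

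Pkm and Aldoa had the same single interval by name and by position, and for Pfkp and Ldha both sums held nearly the same intervals. For Pfkl the sums were similar in size but not in content: 19.1% of the named sum lay outside the gene, and 21.4% of the signal over the gene carried the name Cfap410. Pkm, which encodes pyruvate kinase M, lay under a single interval of 54.8 kb, chr9:59647609-59702452, with 3097 scaled reads. Aldoa, the aldolase gene, lay under a single interval of 30.1 kb, chr7:126784170-126814271, with 1642 scaled reads. The start-site intervals of Ldha (chr7:46835839-46850830), which encodes lactate dehydrogenase A, and of the phosphofructokinase genes Pfkl (chr10:77996867-78012073) and Pfkp (chr13:6640682-6649693) held 827, 622 and 312 scaled reads. Several of these intervals also cover neighbours: the Pkm interval holds the start of Gramd2, and the Aldoa interval those of Fam57b and Ppp4c, so their reads cannot be assigned to 1 gene.

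Promoter sequences are shown for Slc2a1, Hk2 and Ldha, the entry and exit points of the pathway, and for Pkm, whose start-site interval had the smallest acetate effect (Hk2 had the largest). They are the bases before the annotated start in RefSeq (build GRCm38.p6, the same assembly as mm10), written 5′ to 3′ on the strand of the gene, from chr4:119108495-119108710 (plus), chr6:82774455-82774704 (minus), chr7:46845554-46845803 (plus) and chr9:59656977-59657226 (plus). Capitals mark the motif ACGTG, the motif GCGTG and the motif CACGTG on either strand, where the last contains the first on both strands.
Slc2a1: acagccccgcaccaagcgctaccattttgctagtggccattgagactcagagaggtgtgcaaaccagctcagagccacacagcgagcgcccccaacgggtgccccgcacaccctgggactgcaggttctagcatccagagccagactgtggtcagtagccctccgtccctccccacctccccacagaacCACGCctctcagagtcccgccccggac
Hk2: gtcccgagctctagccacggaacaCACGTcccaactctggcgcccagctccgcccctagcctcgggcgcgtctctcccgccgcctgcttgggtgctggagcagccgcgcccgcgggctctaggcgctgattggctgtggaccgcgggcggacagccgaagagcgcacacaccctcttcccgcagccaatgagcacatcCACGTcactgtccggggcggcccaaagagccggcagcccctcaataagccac
Ldha: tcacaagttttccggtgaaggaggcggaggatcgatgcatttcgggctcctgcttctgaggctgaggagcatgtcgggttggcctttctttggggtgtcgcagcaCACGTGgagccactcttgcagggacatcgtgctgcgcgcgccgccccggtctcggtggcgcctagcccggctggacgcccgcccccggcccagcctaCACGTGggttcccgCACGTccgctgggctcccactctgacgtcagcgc
Pkm: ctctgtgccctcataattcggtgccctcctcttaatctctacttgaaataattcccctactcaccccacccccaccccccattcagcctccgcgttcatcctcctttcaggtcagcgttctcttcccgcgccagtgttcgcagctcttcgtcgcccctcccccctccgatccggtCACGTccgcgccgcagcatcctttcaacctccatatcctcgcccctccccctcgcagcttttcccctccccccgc

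All 10 genes had a promoter in the RefSeq table. In the 250 bases before 1 start per gene, taken under its strongest interval and free of annotated exons where possible, ACGTG was found for 5 of the 10 genes (16.6% of 32851 promoters), GCGTG for 6 (28.2%) and CACGTG for 2, Ldha and Pfkfb3 (6.02%). Over any RefSeq start of a gene, ACGTG was found for 6 genes, with Aldoa added, GCGTG for 7 and CACGTG for 2. The Ldha window held CACGTG at 2 places and 1 further ACGTG. The printed Slc2a1 bases hold GCGTG, read on the other strand, and its ACGTG lies beyond their end, where an annotated exon begins. The 4 printed windows were rich in G and C, at 63.9% of the bases printed for Slc2a1, 69.6% for Hk2, 67.2% for Ldha and 61.6% for Pkm. Each lay inside a broad H3K27ac interval. The 32851 promoters were not matched to the members by base content or by H3K27ac, so an enrichment of the motifs was not tested.

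Per kb of interval, the highest density over a gene was that of Eno1, at 79.2 scaled reads per kb, followed by Pkm with 56.5, Aldoa with 54.6 and Ldha with 50.5. Slc2a1 and Hk1 came next with 45.8 and 40.2 per kb, then Hk2 with 36.7 and Pfkl with 31.9. Pfkfb3 (23.3 per kb) and Pfkp (23.1 per kb) were the lowest, and this pair changed places between libraries, with Pfkfb3 above Pfkp in 8 of 12. Pkm exceeded Aldoa, and Hk1 exceeded Hk2, in 10 of 12 libraries, Hk2 exceeded Pfkl in 11, and every other neighbour in the order kept its place in all 12. Within Pfkp, 41.4% of the signal over the gene sat in the start-site interval, against 94.6% within Ldha. The density over a gene averages the start site with the weaker intervals of the gene body.

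The first question of the design was whether acetate raises the mark with or without the inhibitors. Over Slc2a1, the scaled reads of both libraries of each group were 2018 and 2192 with vehicle, 2904 and 2729 with acetate, 2364 and 2328 with etomoxir, 3924 and 3718 with etomoxir + acetate, 1658 and 1954 with etomoxir + SB204990 and 2669.9 and 3446 with all 3 agents. Each pair with acetate stood above its pair without, and the mean was 1.34-fold higher with acetate alone, 1.63-fold with etomoxir and 1.69-fold with both inhibitors. The single interval with the name Slc2a1 rested on 12 to 26 reads a library and gave 11.2 and 11.1 scaled reads with vehicle against 10.3 and 12.1 with acetate, so that no difference was detectable at that depth.

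Among the hexokinases, Hk1 gave 1945 and 2314 with vehicle, 2881 and 3024 with acetate, 2355 and 2229 with etomoxir, 4242 and 3977 with etomoxir + acetate, 1638 and 2253 with etomoxir + SB204990 and 2851 and 3656 with all 3 agents. Hk2, with no named interval, gave 1468 and 1482 with vehicle, 2350.0 and 2088 with acetate, 1726 and 1526 with etomoxir, 3038 and 2737 with etomoxir + acetate, 1019.6 and 1235 with etomoxir + SB204990 and 1832 and 2188 with all 3 agents. Both genes were highest in the 2 libraries of etomoxir + acetate and lowest in set 1 of etomoxir + SB204990, while set 2 of that group lay within the vehicle pair over Hk1 and below it over Hk2. The mean over Hk2 was 1.504-fold higher with acetate than with vehicle, 1.78-fold higher on etomoxir and 1.78-fold higher on both inhibitors.

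Phosphofructokinase commits sugar to glycolysis, Pfkp encoding the platelet form and Pfkl the liver form, and Pfkfb3 makes its activator. Over Pfkp the libraries held 540.3 and 579 with vehicle, 858 and 841 with acetate, 639 and 642 with etomoxir, 1134 and 1135 with etomoxir + acetate, 401 and 620.0 with etomoxir + SB204990 and 722 and 944 with all 3 agents. Over Pfkl they held 602 and 704 with vehicle, 834 and 909.7 with acetate, 734 and 648 with etomoxir, 1285 and 1139 with etomoxir + acetate, 461 and 702 with etomoxir + SB204990 and 833 and 1027 with all 3 agents. In both genes the scaled values of the 2 libraries of etomoxir + SB204990 lay far apart, with set 2 the higher one, a gap that may hold an offset between sets. Pfkfb3 showed the same gap, with 504 and 627 with vehicle, 779.9 and 818 with acetate, 712 and 622 with etomoxir, 1291 and 1185 with etomoxir + acetate, 428 and 654 with etomoxir + SB204990 and 787 and 981 with all 3 agents. Its named interval alone held 22.0 and 19.8 with vehicle, 40.4 and 40.5 with acetate, 28.6 and 26.3 with etomoxir, 47.0 and 34.6 with etomoxir + acetate, 17.9 and 27 with etomoxir + SB204990 and 33.6 and 39.0 with all 3 agents, a low level in which each acetate library still exceeded the libraries of its own background without acetate.

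In the lower part of the pathway, aldolase splits the sugar bisphosphate, enolase makes phosphoenolpyruvate and pyruvate kinase makes pyruvate. Aldoa had 1314 and 1384 with vehicle, 1885 and 1707 with acetate, 1396 and 1427 with etomoxir, 2301 and 2233 with etomoxir + acetate, 1062 and 1091 with etomoxir + SB204990 and 1714 and 2194 with all 3 agents. Eno1 had 1098 and 997 with vehicle, 1475 and 1259.5 with acetate, 1110.4 and 1161 with etomoxir, 1683 and 1609 with etomoxir + acetate, 881 and 707 with etomoxir + SB204990 and 1241 and 1702 with all 3 agents, and it was the only 1 of the 10 genes over which set 2 of etomoxir + SB204990 was below set 1, at 707 against 881. Pkm had 2461 and 2581 with vehicle, 3488 and 3159 with acetate, 2753 and 2825 with etomoxir, 4331 and 4320.1 with etomoxir + acetate, 2093 and 2140.0 with etomoxir + SB204990 and 3019 and 3996 with all 3 agents. Ldha, which turns pyruvate into lactate, had 704 and 662 with vehicle, 1052 and 948 with acetate, 765 and 776 with etomoxir, 1214 and 1236 with etomoxir + acetate, 553 and 591 with etomoxir + SB204990 and 867 and 1127 with all 3 agents. In these 4 genes too no acetate library fell below a library of the same background without acetate.

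**Figure D2:**
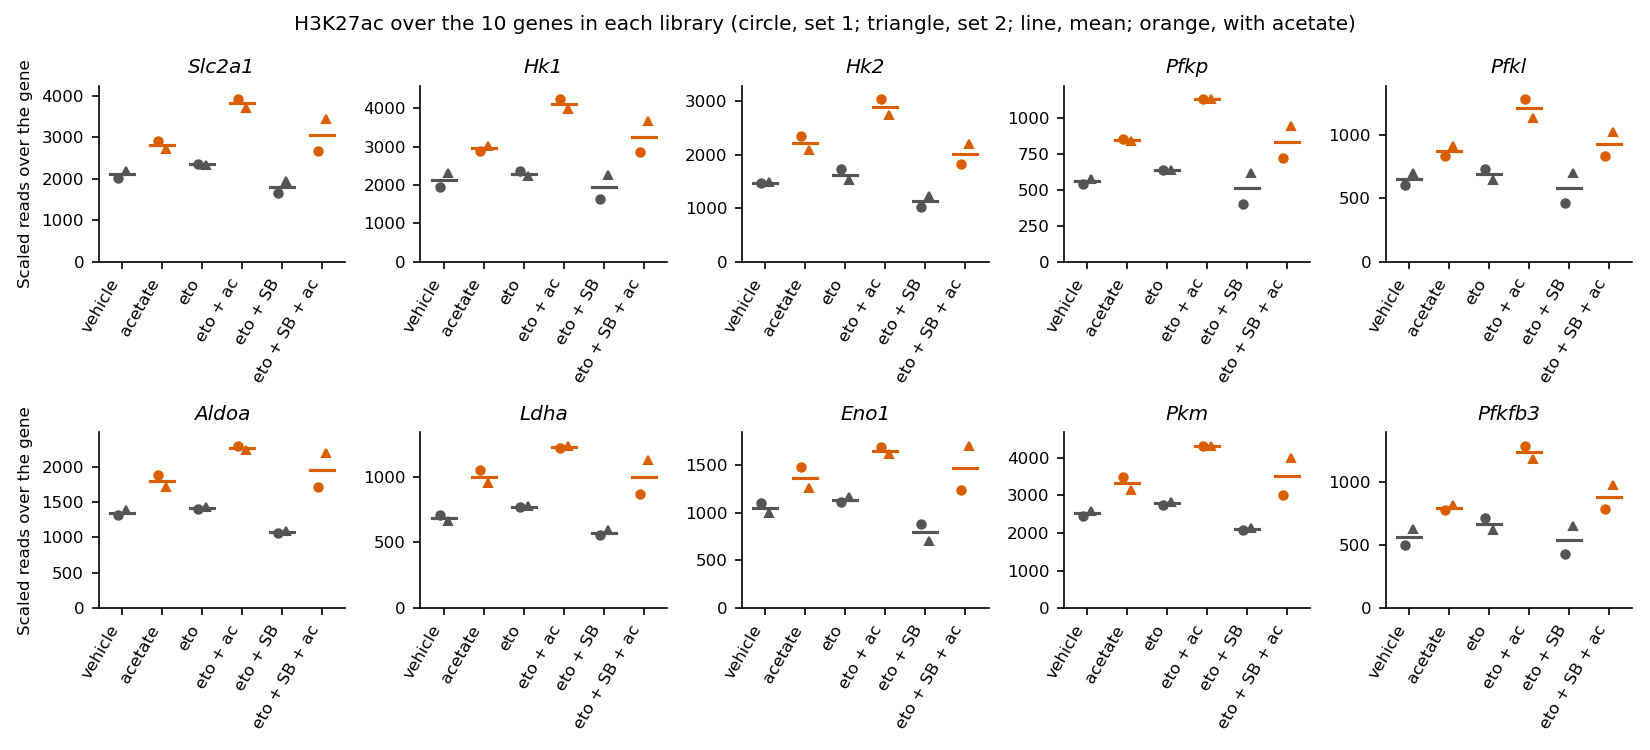
Scaled H3K27ac reads over each of the 10 genes (vertical axis, from 0) in the 6 groups (horizontal axis; eto, etomoxir; SB, SB204990; ac, acetate), with a circle for set 1, a triangle for set 2, a line for the mean and orange for acetate. Each orange pair sits above the grey pair to its left, and etomoxir + acetate is the highest group mean in every gene.

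Averaged over the 3 backgrounds and on the spike-in scale, acetate raised H3K27ac over all 10 genes, a direction that turned for Slc2a1, Eno1 and Pkm with equal totals and also for Pfkl with median-of-ratios scaling. The rises were 0.58 (Pkm) to 0.75 (Hk2) on the log2 scale with adjusted p-values between 1.5e-10 and 1.5e-07 (limma, Benjamini-Hochberg over 14045 genes). In between were Eno1 at 0.60, Slc2a1 at 0.63, Pfkl at 0.64, Aldoa at 0.65, Ldha at 0.67, Hk1 at 0.69, Pfkfb3 at 0.71 and Pfkp at 0.72. The standard errors were 0.11 on the log2 scale, so neighbours in this order were not separated. The same call was made for 97.2% of all genes, and the median of all genes was 0.63, so the members differed from that median by -0.05 (Pkm) to 0.12 (Hk2). By gene name, 8 of the 9 genes tested rose, against 88.2% of 19458 names. Slc2a1 by name gave 0.44 ± 0.32 with an adjusted p of 0.201, and the other 8 lay between 0.58 (Pkm) and 0.74 (Hk1). The median of the 9 was 0.65 and that of all names 0.63.

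Both acetate libraries lay above both libraries without it over 10 of 10 genes in each background, as they did for 92.7%, 99.3% and 87.4% of all genes with acetate alone, on etomoxir and on both inhibitors. On etomoxir and on the spike-in scale, acetate raised the mark over 10 of 10 genes (92% of all genes called higher), from 0.54 (Eno1) to 0.89 (Pfkfb3), a direction that turned for 5 of the 10 with equal totals and for 9 with median-of-ratios scaling. These changes had a member median of 0.76 and a median of all genes of 0.75. On etomoxir with SB204990 it again raised 10 of 10 (86.7%), from 0.70 (Pfkl) to 0.88 (Eno1), with a member median of 0.75 against 0.67. Eno1 was thus the lowest of the 10 on etomoxir, as it was with acetate alone, and the highest on both inhibitors. Without set 2 of etomoxir + SB204990, the library in which Eno1 was low, its change on both inhibitors was 0.72. By gene name, 7 of 9 genes rose on etomoxir (78.2%) and 6 of 9 on both inhibitors (57.7%). The count of 6 fell to 0 without set 2 of etomoxir + SB204990 + acetate (0% of all names), and on the comparison's own libraries both counts on the 2 inhibitors were 0 (0% of all names and genes).

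Acetate alone against vehicle gave smaller changes, 0.38 (Eno1) to 0.60 (Pfkp), each with a standard error of 0.18 to 0.20, and the sign turned for 5 of the 10 with equal totals and for 6 with median-of-ratios scaling. Of the 10 genes, 6 passed the test, Slc2a1, Hk1, Hk2, Pfkp, Ldha and Pfkfb3, against 52.8% of all genes. Adjusted p-values ran only from 0.037 to 0.070, and the call was unstable: none of the 10 passed when any 1 library of vehicle, acetate, etomoxir or etomoxir + acetate was left out, while 10 passed without either library of etomoxir + SB204990 (79.1% of all genes in both fits) and 10 when the comparison was fitted on its own libraries (84.1%). By gene name 0 of 9 passed by limma (0% of all names), with 7 at an unadjusted p under 0.05 (42.9% of names), 0 by edgeR and 5 by DESeq2 (49.8% of the names to which it gave an adjusted p). With the set number as a replicate block 4 of 9 passed (20.0% of names), and on the comparison's own libraries 8 of 9 (61.5%). By name 7 passed without either library of etomoxir + SB204990 (61.1% and 61.2%) and 4 without either of etomoxir + SB204990 + acetate (11.9% in both). Within set 1 the change over the 10 genes had a median of 0.55 and within set 2 of 0.38, positive in 10 of 10 in both.

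**Figure D3:**
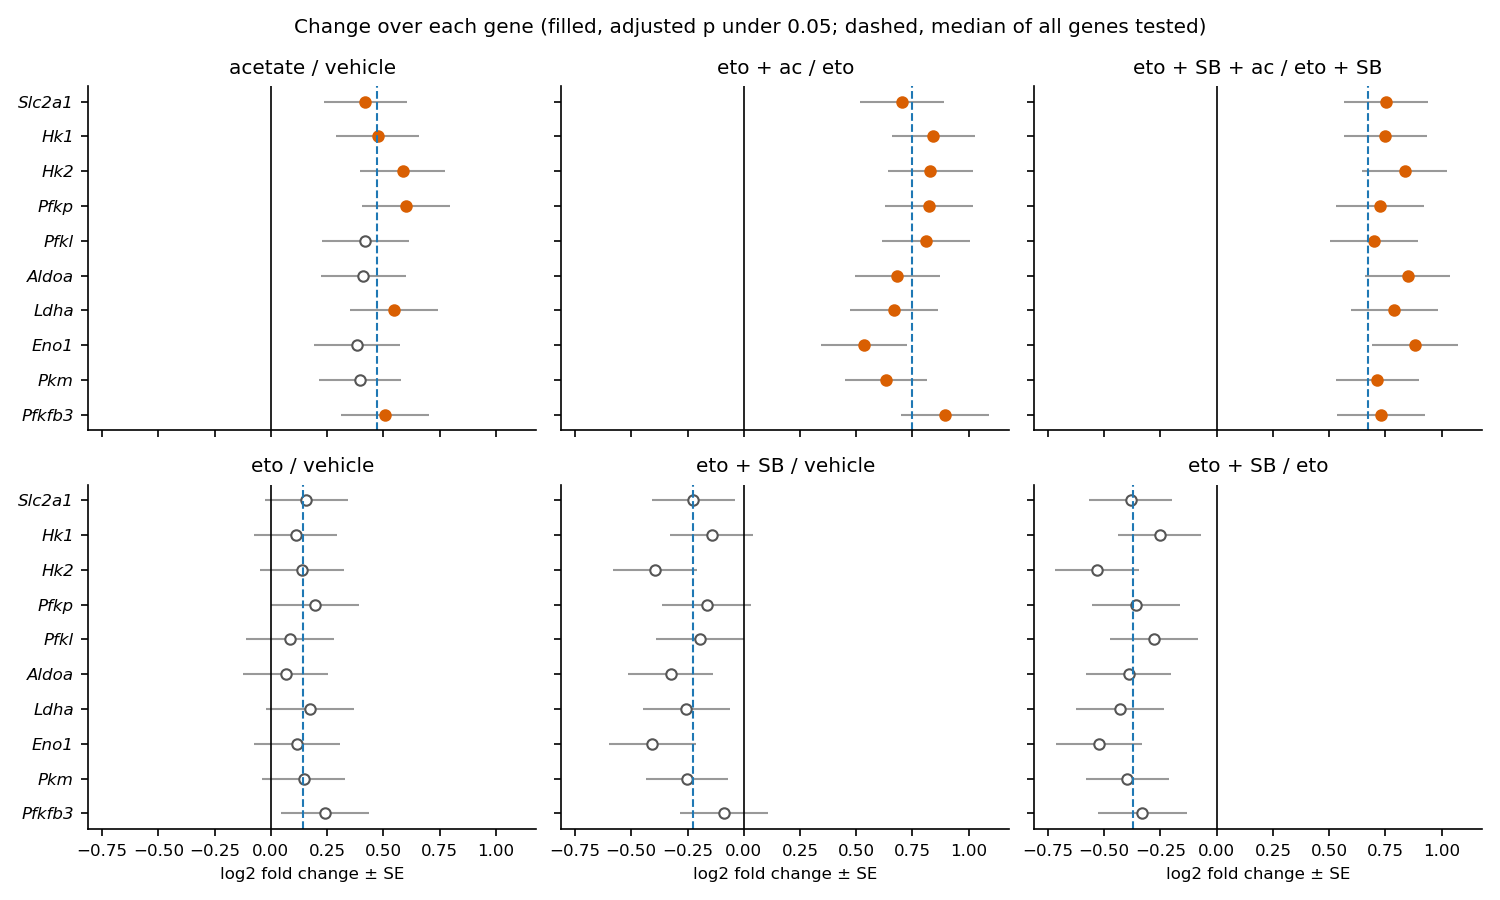
Log2 fold change with its standard error (horizontal axis) for each of the 10 genes (vertical axis) in 6 comparisons, filled where the adjusted p is under 0.05, with a dashed line at the median of all genes tested. The points of the upper row, acetate comparisons, lie around dashed lines at 0.47, 0.75 and 0.67, and in the lower row, inhibitors without acetate, all points are open.

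The members followed the scaled total of the library. That total was 1.38-fold higher with acetate than with vehicle, 1.67-fold higher on etomoxir and 1.58-fold higher on both inhibitors. As a share of all reads in intervals, which does not use the spike-in factor, Slc2a1 took 2.72 to 3.11 per 10000 across the 12 libraries, a 1.14-fold range, where its scaled reads spanned 2.37-fold. Hk2 took 1.72 to 2.33 per 10000 (1.36-fold) and Ldha 0.823 to 1.05 (1.27-fold). The widest range of share was that of Eno1, 0.985 to 1.65 per 10000 (1.67-fold), and the lowest share of 6 of the 10 genes fell in set 2 of etomoxir + SB204990.

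With every library scaled to the same total, 0 of 10 genes passed for the average acetate effect by limma, with 1 at an unadjusted p under 0.05 (15.2% of all genes), and the log2 fold changes ran from -0.04 (Pkm) to 0.12 (Hk2). The same scaling gave 0 of 10 in each separate background. Scaling by median of ratios gave -0.06 to 0.11, and multiplying each share by the factor gave 0.38 to 0.55, both with 0 of 10 passing. With these 3 scalings set beside the spike-in scale, the call over the genes was made only on the latter. The median of all genes moved from 0.63 to 0.01 when totals were equalised.

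**Figure D4:**
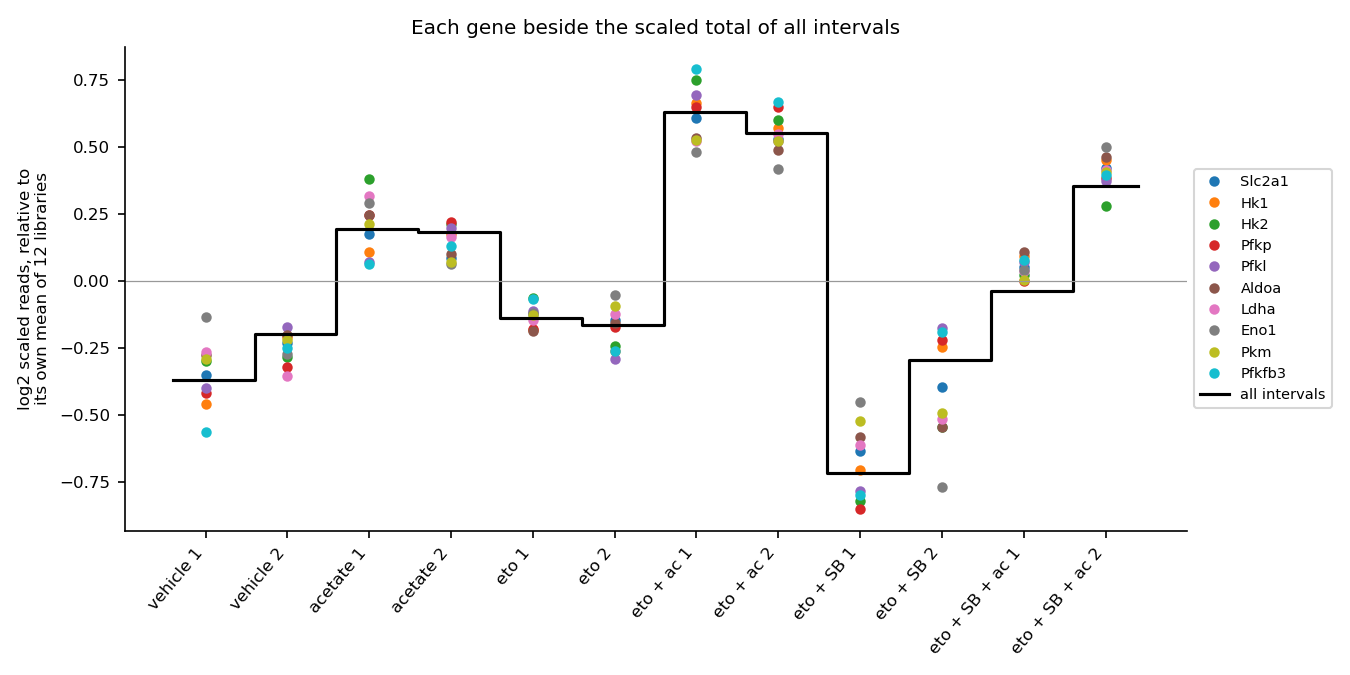
Log2 scaled reads over each gene relative to its own mean of 12 libraries (vertical axis; coloured points) in the 12 libraries (horizontal axis; eto, etomoxir; SB, SB204990; ac, acetate), with a black step line for the scaled total of all intervals. The points rise and fall with the line, and they are farthest apart in set 2 of etomoxir + SB204990, where Eno1 is lowest.

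The second question was what the inhibitors do without acetate. Etomoxir against vehicle gave log2 fold changes of 0.07 (Aldoa) to 0.24 (Pfkfb3) over the 10 genes beside a median of 0.14 over all genes, and 0 of 10 passed by limma (0.135% of all genes), 0 at an unadjusted p under 0.05, 0 by edgeR and 0 by DESeq2. By gene name the 9 values were 0.05 to 0.38, again with 0 passing (0.0154% of names), 0 unadjusted, 0 by edgeR and 0 by DESeq2. Over Slc2a1, Hk2 and Pkm the changes were 0.16, 0.14 and 0.15, each under its standard error of 0.18 to 0.19. The sign depended on the scaling: over the 10 genes the values ran from -0.07 to 0.11 with equal totals, from -0.10 to 0.08 with median-of-ratios scaling and from -0.16 to 0.02 with shares multiplied by the factor. Both etomoxir libraries lay above both vehicle libraries over 7 of the 10 genes, as they did for 50.6% of all genes.

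Etomoxir with SB204990 against vehicle gave negative values over all 10 genes, from -0.41 (Eno1) to -0.09 (Pfkfb3), with a median of -0.24 beside -0.23 for all genes. None passed by limma (0.0712% of all genes), 2 had an unadjusted p under 0.05 (7.30% of all genes), and edgeR and DESeq2 gave 0. With equal totals the values ran from -0.18 to 0.14, with shares multiplied by the factor from -0.13 to 0.19, and with median-of-ratios scaling from -0.34 to -0.03, all 10 negative. Both libraries lay below both vehicle libraries over 6 of the 10 genes (39.9% of all genes), while Hk1, Pfkp, Pfkl and Pfkfb3 overlapped. By gene name the count was 0 of 9 (0.00514% of names), with 0 unadjusted and 0 by edgeR and by DESeq2.

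Adding SB204990 to etomoxir gave -0.53 (Hk2) to -0.25 (Hk1) over the 10 genes, beside a median of -0.37 over all genes. Limma called 0 of 10 (1.03% of all genes in either direction), 6 had an unadjusted p under 0.05 (40.6% of all genes), edgeR called 0 and DESeq2 called 6, all lower (32.1% of the genes to which it gave an adjusted p). The count moved with the libraries fitted: without set 2 of etomoxir + SB204990, 7 of 10 were lower by limma (75.7% of all genes), without set 1 of that group 1 was (2.35%), and without either library of etomoxir + SB204990 + acetate, which enter only through the shared spread, 6 were (35.7% in both). With equal totals the values ran from -0.18 to 0.10, with shares multiplied by the factor from -0.04 to 0.24, and with median-of-ratios scaling from -0.31 to -0.03, all 10 negative. Within set 1 the median change was -0.52, and within set 2 it was -0.28 with 3 of 10 genes positive. By gene name 0 of 9 passed (0% of names), with 4 unadjusted (21% of names), 0 by edgeR and 1 by DESeq2 (17.9% of the names with an adjusted p), and 5 were lower without set 2 of etomoxir + SB204990 (63.8% of names).

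With acetate in both arms, etomoxir + acetate stood above acetate over all 10 genes, by 0.27 (Eno1) to 0.63 (Pfkfb3) on the log2 scale, and the libraries did not overlap in any of the 10 (both were above for 92.7% of all genes). Limma called 0 of 10 (0.249% of all genes), 7 had an unadjusted p under 0.05 (51.2% of all genes), edgeR called 0 and DESeq2 6 (45.0% of the genes with an adjusted p). The replicate block called 2 (19.9% of all genes) and the fit on the comparison's own libraries 10 (85.3%). By limma 7 were called when any 1 library of etomoxir + SB204990, with or without acetate, was left out (47.6% to 55.2% of all genes), libraries that enter this comparison only through the shared spread. The values ran from -0.13 to 0.23 with equal totals and from -0.26 to 0.09 with median-of-ratios scaling, and from 0.31 to 0.67 with shares multiplied by the factor, so the direction held under 2 of the 4 scalings, both of which use the spike-in factor. By gene name 0 of 9 passed (0.0771% of names), with 4 unadjusted (32.6% of names), 0 by edgeR and 3 by DESeq2 (37.2% of those with an adjusted p). On the comparison's own libraries 8 passed (73.1% of names), and 4 passed without either library of etomoxir + SB204990 (43.1% and 43.5%). Etomoxir + SB204990 + acetate against acetate ranged from -0.15 (Hk2) to 0.14 (Pfkfb3), with 0 of 10 passing (0.0427% of all genes), 0 unadjusted, and 0 by edgeR and DESeq2. All 10 genes had overlapping libraries there, as did 91.3% of all genes. Both sets differed in sign, with a median over the 10 genes of -0.17 and 1 positive in set 1 and of 0.27 and 10 positive in set 2, beside -0.22 and 0.18 over all genes. By name the count was 0 of 9 (0.0514%), with 0 unadjusted and 0 by either other tool.

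Whether the acetate change itself differed between backgrounds was tested as an interaction. For etomoxir the difference over the 10 genes was 0.12 to 0.39, and for etomoxir + SB204990 it was 0.12 to 0.50, with standard errors up to 0.28. Limma called 0 of 10 in both (0% of all genes in both), and by name 0 of 9 in both (0% and 0%), with 0 at an unadjusted p under 0.05 and 0 by edgeR and by DESeq2 in each of these 4 sets. A larger acetate change on either inhibitor background is thus not shown for these genes. The 10 estimates were positive in both, beside medians over all genes of 0.28 and 0.21. With equal totals they ran from -0.15 to 0.12 for etomoxir and from -0.07 to 0.30 for etomoxir + SB204990, and with median-of-ratios scaling from -0.25 to 0.01 and from 0.06 to 0.43. With shares multiplied by the factor they ran from 0.38 to 0.65 and from -0.07 to 0.31, and 0 of 10 passed under any of these scalings.

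Interval by interval, 52 of the 76 named intervals had a mean of at least 10 scaled reads and were tested. Acetate, averaged over the backgrounds, raised 42 of them and lowered 0 (77.2% of 63903 intervals were called higher), with a median of 0.67 beside 0.64 for all intervals. The 10 not called were weak, with means of 10.3 to 32.8 scaled reads, and had changes of 0.23 to 0.62: 5 carried the name Eno1, 2 Pfkp, 2 Pfkl and 1 Slc2a1. The largest called changes were 0.96 ± 0.19 (SE) at chr4:150400334-150404391, 0.93 ± 0.31 at chr4:150297120-150298003, both named Eno1 but lying in introns beyond it, and 0.91 ± 0.31 at chr7:46850966-46851503 near the end of Ldha. Their means were 57.5, 12.1 and 12.3 scaled reads. Of the 22 tested intervals over the genes that carried other names, 21 rose, with a median of 0.75.

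All 11 intervals over transcript starts, 2 of Pfkfb3 and 1 of each other gene, rose on average with acetate on the spike-in scale, from 0.58 ± 0.10 (Pkm) to 0.75 ± 0.10 (Hk2), while those of Pfkl, Eno1, Slc2a1 and Pkm and the later start of Pfkfb3 turned negative with equal totals and with median-of-ratios scaling. With each of the other 3 scalings 0 of the 52 named intervals passed. Between these were 0.60 ± 0.11 for Pfkl, 0.60 ± 0.10 for Eno1, 0.62 ± 0.13 for the later start of Pfkfb3, 0.63 ± 0.10 for Slc2a1, 0.65 ± 0.10 for Aldoa, 0.66 ± 0.10 for Ldha, 0.67 ± 0.12 for Pfkp, 0.68 ± 0.10 for Hk1 and 0.72 ± 0.23 for the first start of Pfkfb3. The strongest named interval of Eno1, outside the gene, changed by 0.62 ± 0.10 and also turned negative under both of these scalings. With etomoxir against vehicle, 0 of the 52 named intervals passed (0.0626% of all intervals), 1 at an unadjusted p under 0.05, with 0 by edgeR and DESeq2, and with etomoxir + SB204990 against vehicle 0 passed (0.0532%), 1 unadjusted, with 0 by both other tools.

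**Figure D5:**
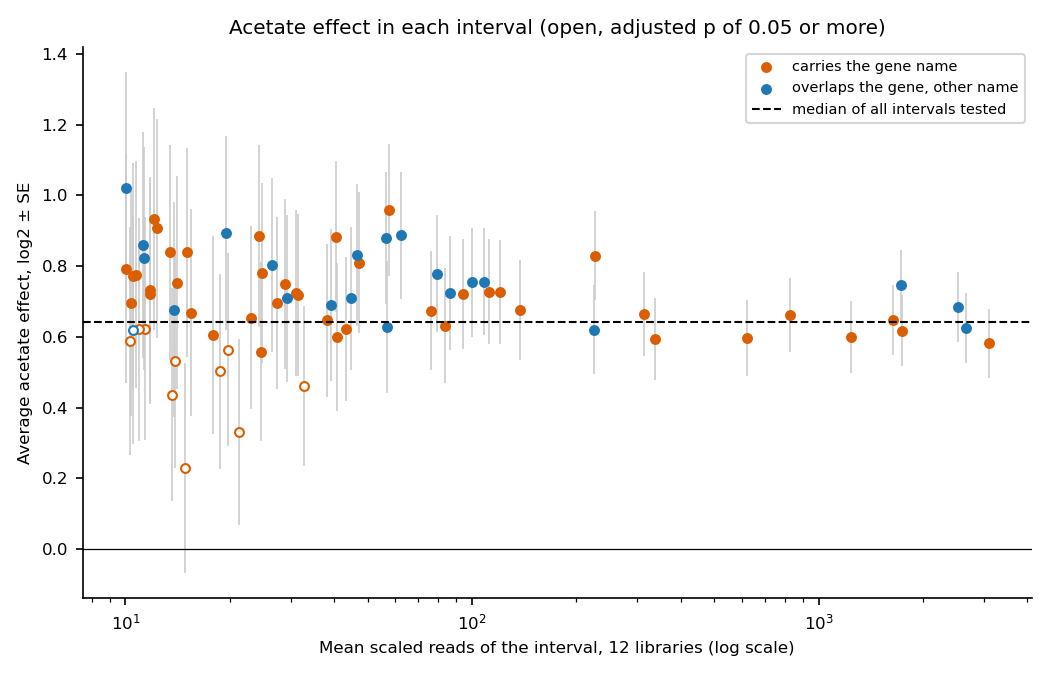
Average acetate effect with its standard error on the log2 scale (vertical axis) against mean scaled reads on a log axis (horizontal) for intervals that carry a member's name (orange) or overlap a member under another name (blue), open where the adjusted p is 0.05 or more. The estimates spread most below about 30 scaled reads and sit near the dashed median of 0.64 above 100.

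A start-site interval could be set against the other intervals of the same name for 4 genes, Eno1, Ldha, Pfkl and Pfkp. Relative to those others, the start-site intervals changed with acetate by -0.05 ± 0.14 (SE) for Eno1, -0.11 ± 0.22 for Ldha, -0.07 ± 0.12 for Pfkl and -0.07 ± 0.12 for Pfkp, each smaller than its error. None of the 4 passed by limma for acetate (0% of 6049 genes), for etomoxir (0%) or for etomoxir + SB204990 against vehicle (0%), and none had an unadjusted p under 0.05 in any of the 3. For acetate the median over all 6049 genes was -0.06. The remaining intervals of Eno1 all lay outside the gene, as did some of those of Pfkl, Pfkp and Ldha. No difference between start sites and the remaining intervals was detectable at this depth.

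Other genes of the pathway were summed in the same way over the gene. Of 17 other glycolytic enzymes 13 could be tested, and all 13 rose with acetate on average (97.2% of all genes), with a median of 0.67 beside 0.63 for all genes. Among them, on average, Tpi1, triosephosphate isomerase, rose by 0.68 ± 0.11, Pgk1, phosphoglycerate kinase, by 0.68 ± 0.11 and Gapdh, glyceraldehyde 3-phosphate dehydrogenase, by 0.62 ± 0.11. Of 10 genes of transport, 8 of the 9 tested rose, with a median of 0.73 over the 9. The exception was Slc16a7, and the largest changes were those of Slc16a3, the lactate exporter MCT4, at 0.96 ± 0.12, and Slc2a8, a glucose transporter, at 0.86 ± 0.14. Of 8 regulators all 7 tested rose, with a median of 0.65. They included Hif1a, a transcription factor that drives glycolytic genes in low oxygen, Txnip, which restrains glucose uptake, and Pfkfb4, a further kinase and phosphatase of fructose 2,6-bisphosphate.

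Without acetate, a single gene of these lists passed. Slc16a7, the monocarboxylate transporter MCT2, was higher with etomoxir + SB204990 than with etomoxir, by 1.15 ± 0.31 with an adjusted p of 0.023 (limma). Its scaled reads were 27.4 and 38.4 with etomoxir against 22.3 and 237 with both inhibitors, so the call came from set 2 of the latter, and without that library the change was -0.52 with an adjusted p of 0.11. By gene name the lists gave 13 of 14 enzymes, 8 of 9 transport genes and 5 of 5 regulators higher with acetate on average, where 88.2% of all names were called, and none in any of the 3 comparisons of inhibitors without acetate.

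The pattern of the 10 genes over libraries, taken as the mean log2 share of the gene sums, was most like that of Eid3 (Pearson r 0.95 across 12 libraries), Rab26, Surf6 and Traf7 (0.94 each) and Fes (0.93) among 11657 genes with a mean of at least 100 scaled reads. By gene name the closest were Nmu (0.93), Camta1 (0.86), Zmat2 (0.84), 4930453N24Rik (0.83) and Cdc23 (0.82) among 13198 names. The points share the libraries and their depth, and these are the highest of many correlations.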

How the data were processed

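H3K27ac ChIP-seq was done on 4T1 cells in 6 groups of 2 libraries. Per the study's methods, chromatin was cut with micrococcal nuclease after formaldehyde fixation, and libraries with human spike-in chromatin were aligned to a merged mouse and human genome. The labels name deepTools and the builds mm10 (GRCm38) and GRCh38. Broad intervals were called with MACS2. Whether they were called per sample or on pooled samples is not given in the sources used here. The authors deposited 1 table of read coverage per interval, a signal in which reads are multiplied by a spike-in factor. The highest factor of each set is 1, so levels are relative to 1 library of the set and may be offset between sets, which the replicate block and the values within a set take into account. In 10 columns whole reads were recovered, with 100% of values within 0.02 of a whole multiple, and 2 columns were deposited as counts with a factor of 1.

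Values were summed per gene name and, chosen after the table had been seen, per gene overlapped (GENCODE M21 basic). Features with a mean of at least 10 scaled reads were tested on log2(value + 1) with limma 3.58.1 (R 4.3.3), with 1 fit of the 6 group means over 12 libraries, an intensity trend, and Benjamini-Hochberg adjustment over all features, called at 0.05. Fold changes are on that scale. edgeR 4.0.16 (quasi-likelihood) and DESeq2 1.42.0 were run on the recovered reads as alternatives, since the deposited values are scaled. Other alternatives were the scaling, the pseudocount, the filter, the trend, the samples fitted, a replicate block, each library left out, and, for gene names, only intervals within 100 kb. Scripts were tested on simulated data. Named were all 10 genes, their start-site and strongest intervals, up to 3 called intervals and up to 3 called genes of each pathway list by size of change, and the 5 genes most alike in pattern, except 1 gene of a pathway list that is not reported here. Members and lists were chosen with earlier results of these data known. A start-site interval was compared with the other intervals of its name by the difference of their log2 values. Precision is limited by 2 libraries a group and, for the weakest intervals, by counting error.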

Additional observations from a re-analysis of the deposited data

How the results depend on the processing

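The calls depended on the scaling. With equal totals, median-of-ratios scaling or shares multiplied by the factor, 0 genes passed in every acetate comparison, by gene name and over the gene, and 0 of the 52 named intervals passed. Equal totals gave negative log2 fold changes for the average acetate effect by gene name (Slc2a1 -0.14, Pfkl -0.014, Pkm -0.045), over the gene for acetate against vehicle (Slc2a1 -0.050, Pfkl -0.049, Aldoa -0.059, Eno1 -0.088, Pkm -0.073) and over the gene for acetate on etomoxir (Slc2a1 -0.040, Aldoa -0.060, Ldha -0.075, Eno1 -0.21, Pkm -0.11). They did so too over the gene for the average effect (Slc2a1 -0.00089, Eno1 -0.027, Pkm -0.045) and for the average effect in single intervals (Pfkfb3 start -0.0031, Pfkl start -0.029, Eno1 start -0.027, Slc2a1 start -0.00089, Pkm start -0.045, Eno1 outside the gene -0.0083). Median-of-ratios scaling gave negative values for the average acetate effect by gene name (Slc2a1 -0.16, Pfkl -0.032, Eno1 -0.015, Pkm -0.063), over the gene for acetate against vehicle (Slc2a1 -0.077, Hk1 -0.021, Pfkl -0.076, Aldoa -0.085, Eno1 -0.12, Pkm -0.10) and over the gene for acetate on etomoxir (Slc2a1 -0.17, Hk1 -0.029, Hk2 -0.043, Pfkp -0.047, Pfkl -0.062, Aldoa -0.19, Ldha -0.20, Eno1 -0.34, Pkm -0.24). The same held over the gene for the average effect (Slc2a1 -0.019, Pfkl -0.00065, Eno1 -0.045, Pkm -0.063) and for the average effect in single intervals (Pfkfb3 start -0.021, Pfkl start -0.047, Eno1 start -0.045, Slc2a1 start -0.019, Pkm start -0.063, Eno1 outside the gene -0.026). None of these passed the test.

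Fits on only the libraries of a comparison called 8 of 9 names and 10 of 10 genes for acetate against vehicle, 0 and 0 for acetate on both inhibitors, and 8 and 10 for etomoxir + acetate against acetate. DESeq2 called 5 names for acetate against vehicle, 1 name and 6 genes (all lower) for SB204990 added to etomoxir, and 3 names and 6 genes for etomoxir + acetate against acetate. With no filter on low values, or no intensity trend, 0 of 10 genes passed for acetate against vehicle (0% and 0.0142% of all genes). With a mean of at least 50 scaled reads, 16 named intervals entered the test and all 16 were called (99.1% of all intervals tested).

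Leaving out 1 library at a time gave 0 to 7 names and 0 to 10 genes for acetate against vehicle (0% to 61.2% of all names, 0% to 79.1% of all genes), 6 to 7 and 9 to 10 on etomoxir (28.8% to 92.2%, 71.6% to 95.8%), 0 to 8 and 7 to 10 on both inhibitors (0% to 91.4%, 34.2% to 95.3%), and 8 to 9 and 10 to 10 for the average (81.2% to 98.5%, 93.8% to 99.6%). It gave 0 to 5 names and 0 to 7 genes for SB204990 added to etomoxir (0% to 63.8%, 0.142% to 75.7%), 0 to 4 and 0 to 7 for etomoxir + acetate against acetate (0.0103% to 43.5%, 0.0356% to 55.2%), and 28 to 51 named intervals for the average effect (58.2% to 94.8% of all intervals). Groups left with 1 library borrowed the spread of the others. With the set number as a replicate block, 4 names passed for acetate against vehicle and 2 genes for etomoxir + acetate against acetate, and no other count moved by over 1.5 times. The labels give both sets across all groups without saying what they share. Correlated across genes, 4 of 15 pairs of deviations from the group means exceeded 0.1, with a median of -0.14 and a highest value of 0.60. Such correlations cannot show an offset common to all genes of a set, so they do not settle whether the libraries are paired. Of all recomputed counts, 576 stayed within 1.5 times of the reported one and 66 did not; the cause was not tested. Named intervals with a mean under 10 scaled reads were too low to be tested.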
